A study of Mus musculus with 8 samples.

Results

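The 8 genes described here handle or sense nucleotides and nucleosides, at the cell surface or inside the cell: Entpd1, Nt5e, Ada, Upp1, Adora2a, Adora2b, P2rx7 and P2ry14. They were chosen by name as a functional group, with earlier results of these data known. The choice was out of 27405 genes listed in any of the 4 deposited matrices, and all 8 were listed in every matrix. The cells were CD45+ immune cells taken by sorting out of MC38 tumours grown in wild-type mice, and their RNA was counted with a droplet method (MC38 is a mouse colon carcinoma line). The LNP-Sirpa group holds 2 libraries from tumours after that treatment, which is named for Sirpa, the gene of SIRPα, an inhibitory receptor of phagocytes. The CTRL group holds 2 libraries labelled control, and all 4 share the wild-type genotype and a batch label. What was given to the controls, the dose, timing and ages are not in the labels, and neither is whether replicates came from separate animals. The p-values given here therefore cover the spread among these libraries alone, which may be technical.

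ATP released by stressed or dying cells is a danger signal, and enzymes on the cell surface turn it into adenosine, which restrains immune cells. Entpd1 encodes CD39, which removes phosphates from ATP and ADP, and Nt5e encodes CD73, which makes adenosine from the resulting AMP. Ada encodes adenosine deaminase, which turns adenosine into inosine, and Upp1 encodes uridine phosphorylase, which splits uridine into uracil and a ribose phosphate. Adora2a and Adora2b encode adenosine receptors that raise cyclic AMP. P2rx7 encodes an ion channel opened by ATP at high concentration and linked to inflammasome activation, and P2ry14 encodes a receptor for UDP-glucose and other UDP sugars. The conversion of ATP to adenosine is known as an immunosuppressive pathway of tumours.

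The LNP-Sirpa libraries held 85810250 and 70581678 unique molecular identifiers (UMIs) and the CTRL libraries 68654004 and 90789729, and 9816 and 8555 against 7129 and 10333 cells were kept. Cells were assigned to types by the UMIs of marker genes, without any of the 8 genes. This placed 60.3% and 69.1% of kept cells in LNP-Sirpa libraries and 74.9% and 74.4% in CTRL libraries, and the rest were left unassigned. Monocyte/macrophage-gated cells numbered 3971 and 4825 against 4777 and 6850. In these cells the 9 phagocyte markers summed to between 12794 and 13055 CPM (UMIs per 1000000 UMIs of the gated cells of a library) in LNP-Sirpa libraries and between 15750.2 and 17138 CPM in CTRL libraries, with none at 0. Sirpa RNA stood at 477 and 351 CPM against 572 and 558 CPM there and did not pass the test (log2 fold change -0.31 ± 0.19 SE, adjusted p = 0.419 in edgeR's quasi-likelihood test). The same phagocyte markers reached 8.57% to 9.0% of that level in the T and NK gates of LNP-Sirpa libraries and 8.59% to 8.68% in those of CTRL libraries, so some phagocyte RNA was counted in lymphocytes in both groups. Some cells passed a fibroblast gate although the sort was for CD45+. Cell names are numbered within each library, and 830 to 1242 names recurred between pairs of libraries, which says nothing about shared cells.

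In monocyte/macrophage-gated cells, Upp1 RNA averaged 145 CPM in LNP-Sirpa tumours and 13.01 CPM in CTRL tumours, and RNA of the adenosine receptor gene Adora2a was also higher. P2ry14 was also higher in both LNP-Sirpa libraries and narrowly missed the threshold. P2rx7 and Ada were lower in both LNP-Sirpa libraries without passing, and Nt5e stood apart in 1 library. With 2 libraries per group, ranges can separate by chance. The share of all genes with separate ranges is not given, here or further on, so separation alone is no test. Of the 8 genes tested, 2 passed upward and 0 downward at an adjusted p under 0.05 (edgeR's quasi-likelihood test on UMIs summed per library, Benjamini-Hochberg adjustment over all genes of the gate). Of all 15463 genes tested in the gate, 1.53% passed upward and 0.582% downward. DESeq2 called 5 of the 8 genes (and 9.13% of all genes it tested, in either direction), and 5 had an unadjusted p under 0.05 in edgeR. The share of all genes with an unadjusted p under 0.05 is not given, here or further on, so such counts have no background. The median log2 fold change was 0.75 over the 8 genes and -0.02 over all genes tested. Since the 8 genes were chosen with earlier results of these data known, these contrasts with all genes are no test of the group.

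**Figure D1:**
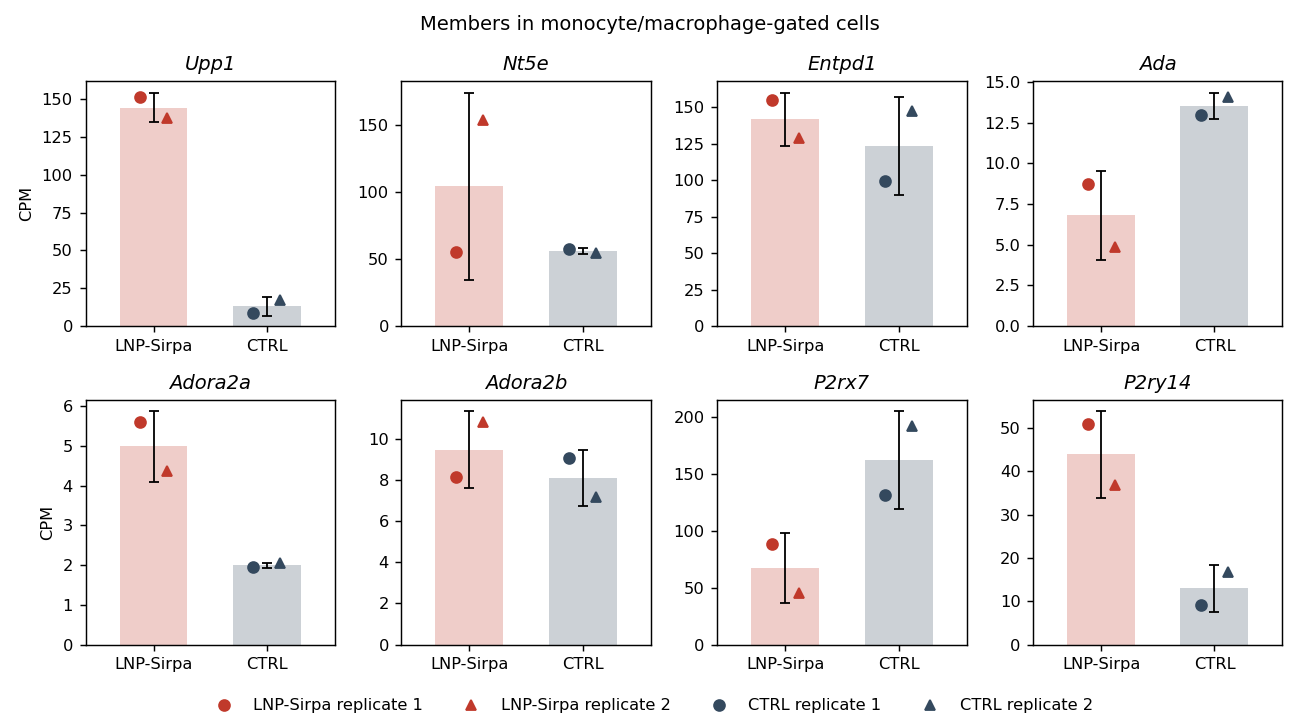
Level of each gene (CPM, linear axis from 0) in monocyte/macrophage-gated cells. Points are libraries, bars are group means and error bars the SD (n = 2 each). Upp1, Adora2a and P2ry14 are higher and Ada and P2rx7 lower in both LNP-Sirpa libraries than in both CTRL libraries, and Nt5e is high in LNP-Sirpa replicate 2 alone. The share of all genes that separate in this way is not given.

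Entpd1, at the first step of the pathway, stood at 155 and 129 CPM in LNP-Sirpa libraries and at 99.6 and 147 CPM in CTRL libraries. The groups overlapped, and the difference did not pass (log2 fold change 0.33 ± 0.23 SE, adjusted p = 0.484). Nt5e, at the next step, had 55.2 and 154 CPM in LNP-Sirpa libraries, against 57.5 and 54.7 CPM in CTRL libraries. LNP-Sirpa replicate 2 alone was high, and the other 3 libraries lay within 3 CPM of each other. The fold change was 1.10 ± 0.52 (adjusted p = 0.321). A single library decided this value: with LNP-Sirpa replicate 2 left out it was 0.01, and with LNP-Sirpa replicate 1 left out it was 1.71 and passed (adjusted p = 0.00191).

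Ada, which removes adenosine, had 8.74 and 4.85 CPM in LNP-Sirpa libraries and 12.96 and 14.1 CPM in CTRL libraries. Both LNP-Sirpa values were below both CTRL values, at a log2 fold change of -0.88 ± 0.24 that missed the threshold (adjusted p = 0.111). Leaving out LNP-Sirpa replicate 1 brought it past the threshold (-1.23, adjusted p = 0.0179).

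Upp1, the uridine-splitting enzyme, had 152 and 138 CPM in LNP-Sirpa libraries, from 4613 and 5396 UMIs, against 8.60 and 17.4 CPM in CTRL libraries, from 339 and 904 UMIs. The group means were 145 ± 9.84 and 13.01 ± 6.24 CPM (SD, n = 2 each), and the ranges did not overlap. The log2 fold change was 3.60 ± 0.38 (adjusted p = 0.0274). The size of the change was similar without LNP-Sirpa replicate 1, but that fit missed the threshold (3.64, adjusted p = 0.0631). Neutrophil-gated cells held Upp1 at higher levels (given further on), and the 6 neutrophil markers summed to between 68.3 and 141 CPM in the monocyte/macrophage gate of LNP-Sirpa libraries, against 29.0 to 37.6 CPM in CTRL libraries. The part of this RNA in the Upp1 difference was not tested.

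Adora2a RNA was scarce in these cells. It had 5.62 and 4.36 CPM in LNP-Sirpa libraries, from 171 UMIs each, against 1.95 and 2.04 CPM in CTRL libraries, from 77 and 106 UMIs. The LNP-Sirpa values lay above both CTRL values, at a log2 fold change of 1.45 ± 0.23 (adjusted p = 0.0348). The call was lost without CTRL replicate 1 (1.38, adjusted p = 0.211), without CTRL replicate 2 (1.53, adjusted p = 0.102) and with stricter gates (1.45, adjusted p = 0.0515). The other adenosine receptor gene, Adora2b, had 8.15 and 10.8 CPM in LNP-Sirpa libraries and 9.05 and 7.15 CPM in CTRL libraries. Its groups overlapped (0.40 ± 0.24, adjusted p = 0.420).

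P2rx7, the ATP-gated channel, had 88.6 and 45.4 CPM in LNP-Sirpa libraries, against 131 and 192 CPM in CTRL libraries. Both LNP-Sirpa values were below both CTRL values, and the log2 fold change of -1.16 ± 0.32 missed the threshold (adjusted p = 0.126). DESeq2 called it (-1.16, adjusted p = 0.00315), as did edgeR on thinned cells (-1.37, adjusted p = 0.0392). P2ry14, the UDP-sugar receptor, had 50.9 and 36.8 CPM in LNP-Sirpa libraries and 9.16 and 16.8 CPM in CTRL libraries. Both LNP-Sirpa values were more than 2 times the higher CTRL value, and the log2 fold change was 1.88 ± 0.32 (adjusted p = 0.0529). Without CTRL replicate 2 it passed (2.43, adjusted p = 0.00729), as it did on thinned cells (1.98, adjusted p = 0.0203). In the RefSeq annotation P2ry14 overlaps Med12l and a long non-coding RNA gene, and whether counting used strand is not given in the sources used here, so P2ry14 counts are uncertain to that extent. Med12l had 23.8 and 16.5 CPM in LNP-Sirpa libraries and 11.6 and 14.7 CPM in CTRL libraries. The 7 NK markers summed to between 39.4 and 83.4 CPM in these cells of LNP-Sirpa libraries, against 22.1 to 22.7 CPM in CTRL libraries, and the 5 T cell markers to between 35.1 and 60.6 against 14.8 to 28.6 CPM. P2ry14 and Adora2a were both higher in NK and CD8 T cells than in monocyte/macrophage cells of CTRL libraries, and the part of this RNA in their differences was not tested.

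Promoter sequences (250 bases before to 50 after a start, RefSeq, build GRCm38.p6) were found for 7 of the 8 genes, and those of Upp1 and P2ry14 are shown because these genes were higher in both LNP-Sirpa libraries than in both CTRL libraries, in this gate and in each of its states described next. The Upp1 promoter at the first listed of 3 starts is chr11:9117758-9118057 on the plus strand, and the P2ry14 promoter at the first of 4 starts is chr3:59153443-59153742 on the minus strand. Capitals mark TGANTCA, the letters bound by AP-1 factors.
Upp1: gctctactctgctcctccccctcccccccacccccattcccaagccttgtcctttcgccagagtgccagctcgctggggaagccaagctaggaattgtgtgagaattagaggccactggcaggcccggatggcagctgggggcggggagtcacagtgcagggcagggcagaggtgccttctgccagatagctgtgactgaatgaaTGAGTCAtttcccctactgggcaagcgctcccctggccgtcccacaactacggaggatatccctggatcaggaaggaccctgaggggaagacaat
P2ry14: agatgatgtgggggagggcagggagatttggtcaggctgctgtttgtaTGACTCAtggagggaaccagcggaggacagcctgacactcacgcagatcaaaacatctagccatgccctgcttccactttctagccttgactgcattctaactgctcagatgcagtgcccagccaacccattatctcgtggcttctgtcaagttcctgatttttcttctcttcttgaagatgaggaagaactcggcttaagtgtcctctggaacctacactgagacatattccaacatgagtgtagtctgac
The match begins 45 bases before the start in Upp1 and 202 bases before it in P2ry14. Searched on both strands, TGANTCA also occurs once at the first listed start of P2rx7 and at none listed for Nt5e, Entpd1, Ada and Adora2b, and 7.81% of 32851 promoters hold it. Among further listed starts it occurs at start 2 of Upp1 and of P2ry14. It is absent at start 3 of Upp1, starts 3 and 4 of P2ry14 and start 2 of P2rx7. A motif of interferon response elements occurs in 3.44% of promoters and TGACGTCA, the letters of cyclic AMP response elements, in 1.79%, and neither in those listed for the 7 genes. The letters say nothing of whether a factor is bound in these cells.

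The share of cells with at least 1 UMI showed the same order of groups. Each cell was thinned to 2000 UMIs, which left out 1733 and 1412 kept cells of LNP-Sirpa and 1122 and 1528 of CTRL libraries. Upp1 was then seen in 19.2% and 20.04% of monocyte/macrophage-gated cells of LNP-Sirpa libraries, against 1.16% and 2.69% in CTRL libraries. The exact Clopper-Pearson 95% intervals, which cover counting error only, ran from 17.9% to 21.3% over the LNP-Sirpa libraries and from 0.853% to 3.14% over the CTRL libraries. Unthinned, the shares were 35.5% and 42.5% against 3.89% and 6.47%, at a median of 6432 and 6912 against 6727 and 6440.5 UMIs per cell. In fibroblast-gated cells, which are not phagocytes, the thinned shares were 4.17% and 8.16% against 0.667% and 3.73%. Unthinned, they were 26.2% and 30.2% against 11.3% and 16.6%, at medians of 10544.5 and 9334 against 10772 and 10600.0 UMIs.

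P2ry14 was seen in 8.10% and 6.68% of thinned monocyte/macrophage-gated cells of LNP-Sirpa libraries and in 1.6% and 3.00% of those of CTRL libraries. P2rx7 was seen in 13.4% and 8.09% against 20.4% and 25.7%. For both genes the 4 intervals did not overlap between groups. Adora2a was seen in 1.13% and 1.2% against 0.394% and 0.471%, at a level where the depth of 2000 UMIs limits detection. RNA of both ectonucleotidases was looked for in the same cell. Entpd1 and Nt5e were both seen in 1.48% and 4.12% of thinned cells in LNP-Sirpa libraries, against 1.38% and 1.82% in CTRL libraries. The products of the single shares were 1.77% and 3.61% against 1.24% and 1.56%, so the observed share was below its product in LNP-Sirpa replicate 1 and above it in the other 3 libraries.

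**Figure D2:**
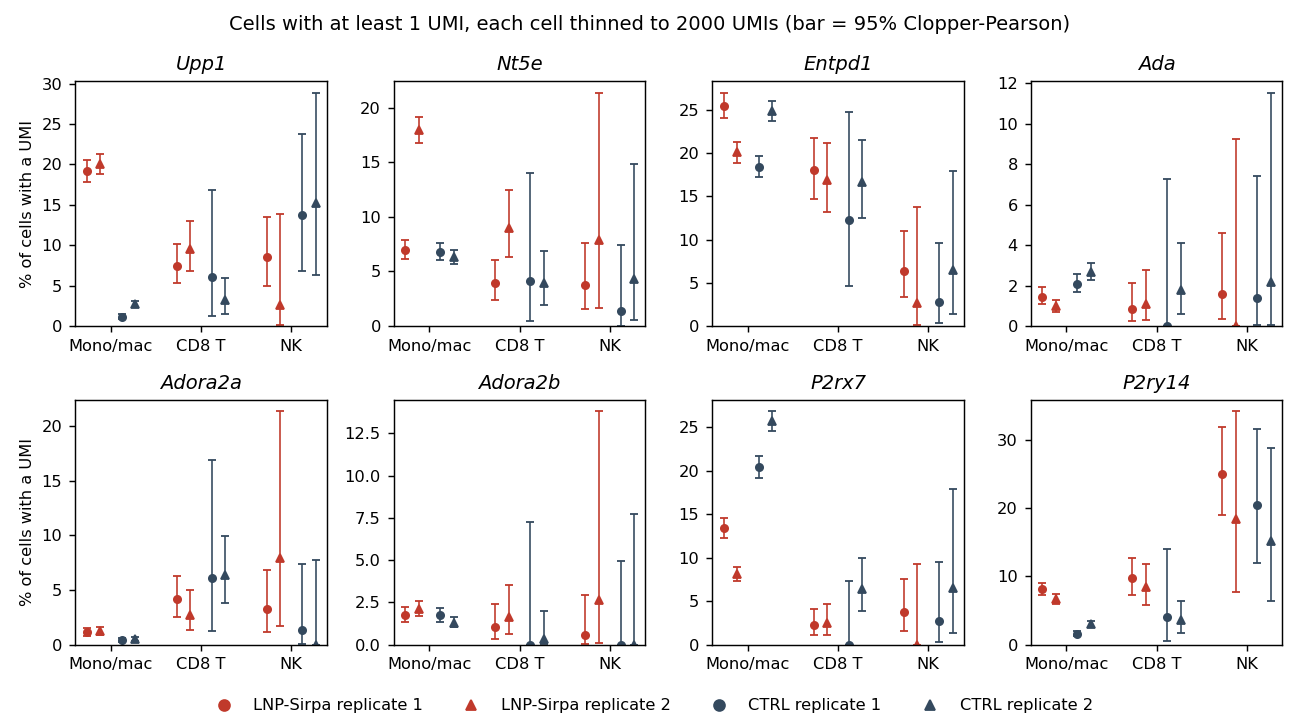
Share of cells with at least 1 UMI of each gene after thinning to 2000 UMIs per cell, in monocyte/macrophage, CD8 T and NK gates (percent, linear axis from 0). Points are libraries and bars exact Clopper-Pearson 95% intervals for counting error. Upp1 stands at 19.2% and 20.04% in monocyte/macrophage-gated cells of LNP-Sirpa libraries and at 1.16% and 2.69% in CTRL libraries, while P2ry14 is most frequent in the NK gate.

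The 8 genes were then followed through 8 states of the monocyte/macrophage gate, cut by scores on marker lists (monocyte, resident, interferon, inflammatory, lipid, MHC-II, cycling and other). States are ranges of a score, not cell types, and their mix differed between groups: monocyte-state cells made up 22.9% and 15.5% of the gate in LNP-Sirpa libraries and 1.76% and 1.01% in CTRL libraries, and resident-state cells 4.48% and 1.28% against 37.0% and 26.9%. Upp1 was higher in both LNP-Sirpa libraries than in both CTRL libraries in all 8 states, and passed in 7 of them. P2ry14 did so too, and passed in 6 states.

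In monocyte-state cells Upp1 had 294 and 255 CPM in LNP-Sirpa libraries, against 66.8 and 123 CPM in CTRL libraries (log2 1.64 ± 0.29, adjusted p = 0.00378). The highest CTRL levels of Upp1 over states were found here. Inflammatory-state cells had 251.4 and 133 CPM in LNP-Sirpa libraries and 15.8 and 34.8 CPM in CTRL libraries (2.88 ± 0.41, adjusted p = 0.0171). Resident-state cells, where Upp1 was lowest in CTRL libraries, had 19.5 and 61.7 CPM against 2.56 and 3.62 CPM (3.31 ± 0.55, adjusted p = 0.0227). The other states that passed were interferon (1.72), lipid (2.48), cycling (3.64) and other (2.66), with adjusted p between 0.00600 and 0.0181. MHC-II-state cells had 38.7 and 101 CPM against 6.98 and 13.5 CPM and did not pass (2.78, adjusted p = 0.401), but passed without either LNP-Sirpa library (3.36 without replicate 1 and 1.74 without replicate 2). Without CTRL replicate 1 the call was lost in the monocyte, lipid and cycling states (1.28, 2.15 and 3.43), without CTRL replicate 2 in the cycling state (3.87) and without LNP-Sirpa replicate 1 in the inflammatory state (2.42), and 4 of 8 states passed once cells were thinned.

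When every library was weighted to the mean CTRL mix of states, Upp1 came to 79.5 and 87.9 CPM in LNP-Sirpa libraries and 9.25 and 16.1 CPM in CTRL libraries. The log2 ratio of group means was then 2.73, compared with 3.47 as measured. For P2ry14 the ratio was 1.78 at the CTRL mix and 1.76 as measured. This weighting was chosen after seeing the data.

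P2ry14 had between 20.3 and 65.2 CPM over the states of LNP-Sirpa libraries and between 6.96 and 28.2 CPM over those of CTRL libraries. It passed in the resident (1.78), interferon (1.26), inflammatory (1.65), MHC-II (1.44), cycling (2.30) and other (1.52) states, with adjusted p between 0.0274 and 0.0463. The monocyte and lipid states gave 1.84 and 1.45 (adjusted p = 0.0557 and 0.0755). Without CTRL replicate 1 it passed in 1 state, and with stricter gates in 3. The call was also lost in the interferon state without LNP-Sirpa replicate 2 (1.19), in the inflammatory state without LNP-Sirpa replicate 1 (1.45) and in the cycling state without CTRL replicate 2 (2.71). It was gained in the monocyte state without LNP-Sirpa replicate 2 (2.09) and in the lipid state without LNP-Sirpa replicate 1 (1.62) or CTRL replicate 2 (1.94).

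The inflammatory state was the one in which P2rx7 and Adora2a also passed. P2rx7 had 73.4 and 51.2 CPM there in LNP-Sirpa libraries, against 114 and 139 CPM in CTRL libraries (-1.03 ± 0.23, adjusted p = 0.0427). Adora2a had 18.5 and 9.54 CPM in LNP-Sirpa libraries and 3.34 and 2.59 CPM in CTRL libraries (2.18 ± 0.42, adjusted p = 0.0274). Neither call held with stricter gates, and that of P2rx7 was lost without CTRL replicate 2 (-0.84, adjusted p = 0.215). In all, 3 members rose and 1 fell in this state, where 2.38% of the genes tested passed upward and 0.798% downward. Upward shares of all genes in the other states were 0.644% (monocyte, 1 member), 0.868% (resident, 2), 0.383% (interferon, 2), 0.747% (lipid, 1), 0.472% (MHC-II, 1), 0.237% (cycling, 2) and 0.803% (other, 2).

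Nt5e in LNP-Sirpa replicate 2 was highest of the 4 libraries in every state, with 226 CPM in resident-state cells, against 13.6 CPM in LNP-Sirpa replicate 1 and 29.6 and 21.3 CPM in CTRL libraries. That state gave a log2 fold change of 1.67 ± 1.57 (adjusted p = 0.751).

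**Figure D3:**
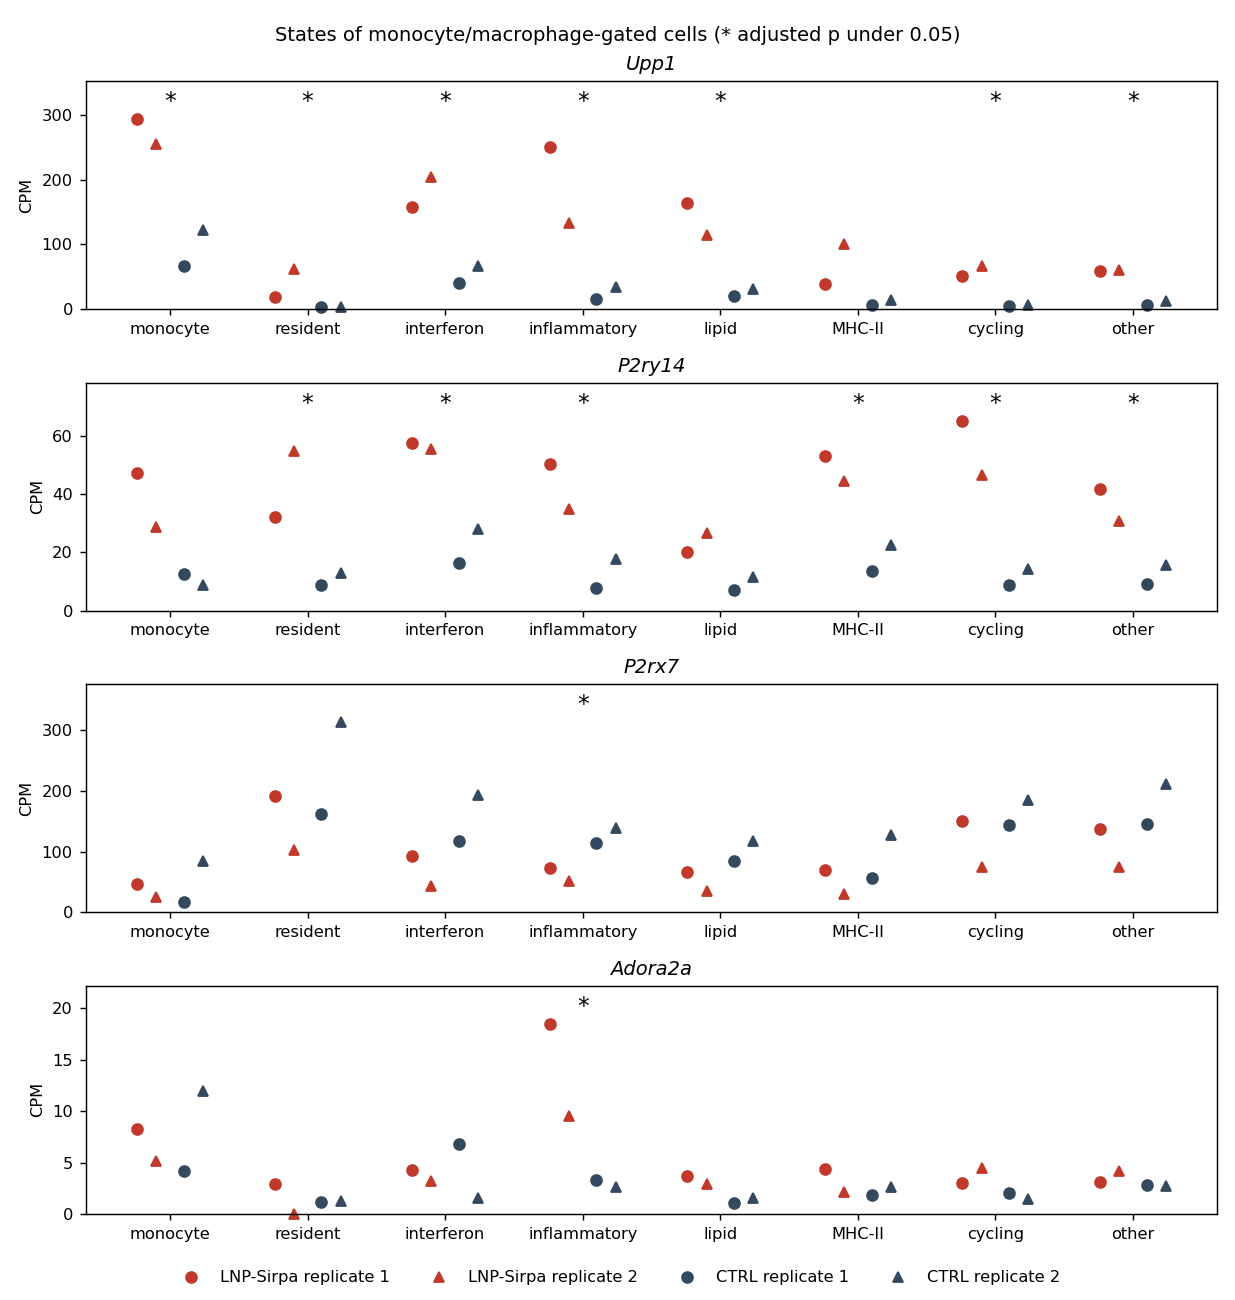
Level of Upp1, P2ry14, P2rx7 and Adora2a (CPM, linear axes from 0) in the 8 states of monocyte/macrophage-gated cells, by library. Stars mark states past an adjusted p of 0.05 in edgeR. Upp1 is higher in both LNP-Sirpa libraries in each state, from 19.5 and 61.7 against 2.56 and 3.62 CPM in resident-state cells to 294 and 255 against 66.8 and 123 CPM in monocyte-state cells.

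Outside the monocyte/macrophage gate, Upp1 rose in dendritic-gated cells (170 and 35 cells in LNP-Sirpa libraries, 100 and 118 in CTRL libraries). It had 85.5 and 133 CPM in LNP-Sirpa libraries and 31.1 and 13.9 CPM in CTRL libraries (2.07 ± 0.42, adjusted p = 0.0184). The groups did not overlap. Leaving out CTRL replicate 2 (1.59, adjusted p = 0.135) or thinning the cells (2.10, adjusted p = 0.0578) ended the call. It was 1 of 5 members tested in that gate, where 1.04% of genes passed upward and 0.266% downward. Phagocyte markers in these cells reached 9.20% to 12.5% of their monocyte/macrophage level in LNP-Sirpa libraries and 8.17% to 9.16% in CTRL libraries. The 6 neutrophil markers summed to between 20.5 and 135 CPM in dendritic-gated cells of LNP-Sirpa libraries, against 8.11 to 11.4 CPM in CTRL libraries, with up to 3 of them at 0 in a library. The part of either in the Upp1 difference was not tested.

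In regulatory T cells, Upp1 had 84.1 and 69.4 CPM in LNP-Sirpa libraries, against 23.8 and 9.499 CPM in CTRL libraries, from 7 and 3 UMIs. The log2 fold change was 2.20 ± 0.44 and just missed the threshold (adjusted p = 0.0617). Fits that left out LNP-Sirpa replicate 1, LNP-Sirpa replicate 2 or CTRL replicate 1 did pass (2.07, 2.29 and 3.01). Neutrophil markers summed to between 50.2 and 162 CPM in these cells of LNP-Sirpa libraries, against 19.0 to 34.1 CPM in CTRL libraries (up to 2 of 6 at 0), and their part was not tested. In CD8 T cells the groups overlapped, with 62.5 and 65.4 CPM against 72.0 and 23.2 CPM (0.79 ± 0.43, adjusted p = 0.686), a value that passed without CTRL replicate 1 (1.47, adjusted p = 0.0163) and turned to -0.16 without CTRL replicate 2. In NK cells Upp1 was lower in both LNP-Sirpa libraries, at 54.4 and 27.8 CPM against 79.5 and 98.7 CPM (-1.03 ± 0.31, adjusted p = 0.101), and passed without LNP-Sirpa replicate 1 (-1.70, adjusted p = 0.0256). The marker level of the NK gate differed between groups too, and whether its mix of cells did was not tested. Its 7 NK markers summed to between 9194 and 14882 CPM in LNP-Sirpa libraries, against 5129 to 5632 CPM in CTRL libraries. The NK-gated cells numbered 206 and 45 against 77 and 51, at a median of 6430.5 and 4141 against 12367 and 6527 UMIs. Whether this bears on the Upp1 values of NK cells was not tested. Fibroblast-gated cells had 35.6 and 39.8 CPM against 10.9 and 20.7 CPM (1.25 ± 0.36, adjusted p = 0.165). In the CD8 T and NK gates too neutrophil markers were higher in LNP-Sirpa libraries (46.9 to 114 against 2.77 to 13.6 CPM, and 27.8 to 73.1 against 4.03 to 5.16 CPM, with up to 5 and 4 of 6 at 0), and in fibroblasts they overlapped (17.9 to 82.9 against 10.9 to 25.6 CPM, up to 3 at 0).

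Among receptors in CD8 T cells, P2ry14 had 71.1 and 59.7 CPM in LNP-Sirpa libraries and 33.2 and 24.7 CPM in CTRL libraries (1.29 ± 0.27, adjusted p = 0.0662). P2rx7 had 11.3 and 8.23 CPM against 22.1 and 34.8 CPM (-1.64 ± 0.35, adjusted p = 0.0736). The gate held 503 and 405 cells in LNP-Sirpa libraries and 50 and 285 in CTRL libraries. CTRL replicate 1 had 361211 UMIs there, so its values rest on few UMIs of either gene. For both genes the groups did not overlap and the threshold was narrowly missed. Both passed without LNP-Sirpa replicate 1, without LNP-Sirpa replicate 2 or without CTRL replicate 1, at 1.24 to 1.41 for P2ry14 and -1.83 to -1.53 for P2rx7. The NK markers summed to between 1588 and 4057 CPM in CD8 T cells of LNP-Sirpa libraries, against 934 to 1489 CPM in CTRL libraries, with none at 0. P2ry14 was highest in NK cells. Whether NK cells or the CD8 T cells themselves made these markers was not tested, and neither was their part in the P2ry14 difference of CD8 T cells. In NK cells P2ry14 had 169 and 132 CPM against 80.5 and 96.7 CPM (0.71 ± 0.25, adjusted p = 0.196, and 0.83 with adjusted p = 0.0372 without LNP-Sirpa replicate 2).

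No member passed in the CD8 T, regulatory T, NK or fibroblast gates in edgeR's quasi-likelihood test. An unadjusted p under 0.05 was found for 3 of 8, 4 of 5, 2 of 6 and 3 of 6 members tested. No share of all genes at that unadjusted limit is given to set beside them. DESeq2 gave an adjusted p for 6 members in CD8 T cells, 3 in regulatory T cells and 5 in fibroblasts, and called 0 of them. In NK cells it gave one for 0 members, so it tested none there. At an adjusted p under 0.05 in edgeR, the genes passing in either direction made up 0.228%, 0.172%, 1.34% and 1.48% of those tested in these 4 gates.

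**Figure D4:**
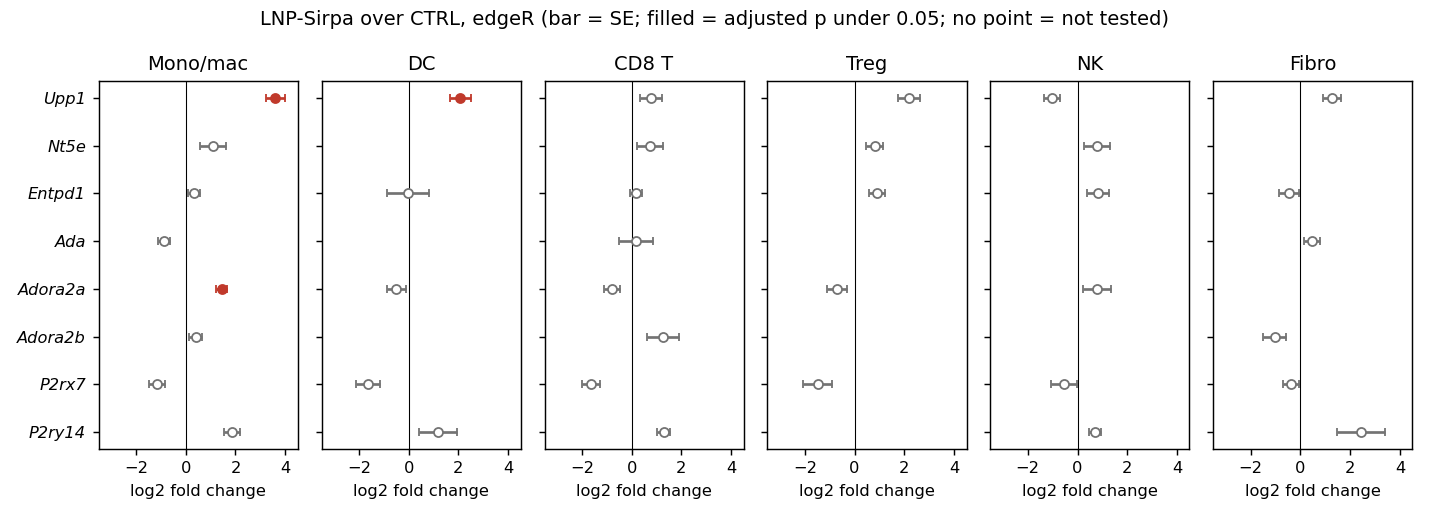
Log2 fold change of LNP-Sirpa over CTRL for each gene in 6 gates, from edgeR, with the SE as bars (n = 2 libraries per group). Filled points pass an adjusted p of 0.05: Upp1 (3.60) and Adora2a (1.45) in the monocyte/macrophage gate and Upp1 (2.07) in the dendritic gate.

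Whether the treatment effect differed between gates was tested as an interaction, with the library as a block. Only the comparison with T and NK cells together was planned, and those with single gates were added after seeing the data. Each such fit has 8 sums and 2 residual degrees of freedom and borrows its spread across genes, so small p-values rest on that shared estimate. The Upp1 effect in monocyte/macrophage cells exceeded that in NK cells by 4.70 ± 0.33 on the log2 scale (adjusted p = 1.59e-41), that in fibroblasts by 2.40 ± 0.34 (adjusted p = 3.48e-09) and that in dendritic cells by 1.56 ± 0.41 (adjusted p = 0.0335). Against all T and NK cells together the difference of 3.12 ± 0.91 did not pass (adjusted p = 0.513), and it passed without CTRL replicate 1 (2.11), without CTRL replicate 2 (4.23) and with stricter gates (3.11). The NK difference passed without each library in turn (4.36 to 5.42), and it rests on NK gates whose marker levels differed between groups, as given above. That to fibroblasts missed without LNP-Sirpa replicate 2 (2.44, adjusted p = 0.0840), and that to dendritic cells without LNP-Sirpa replicate 1 (1.22, adjusted p = 0.355) and without CTRL replicate 1 (0.32, adjusted p = 1.00).

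Adora2a had an effect in monocyte/macrophage cells 1.69 ± 0.31 above that in T and NK cells (adjusted p = 0.00879) and 2.17 ± 0.45 above that in CD8 T cells (adjusted p = 0.000188). T and NK cells had 20.3 and 19.6 CPM in LNP-Sirpa libraries and 18.8 and 27.5 CPM in CTRL libraries, so their groups overlapped. In LNP-Sirpa libraries, NK-gated cells held 1764175 of 9078221 and 287258 of 4805917 UMIs of these sums. In CTRL libraries they held 969008 of 2022291 and 496426 of 3307479, so the mix of cells differed between libraries. Adora2a itself had fold changes of -0.78 in CD8 T, -0.71 in regulatory T and 0.77 in NK cells, none past the threshold. The part of the mix in comparisons with T and NK cells was not tested. The difference to T and NK cells was lost without LNP-Sirpa replicate 1 (1.56), without CTRL replicate 2 (1.5) and after thinning (1.79), and that to CD8 T cells without CTRL replicate 2 (1.71). P2ry14 had an effect 1.26 ± 0.30 above that in NK cells (adjusted p = 0.00567), lost without LNP-Sirpa replicate 1 (1.25), CTRL replicate 1 (0.93) or CTRL replicate 2 (1.56). Its difference to T and NK cells together, 1.26 ± 0.57, did not pass (adjusted p = 0.607), and passed without CTRL replicate 2 (2.10). The differences for P2rx7 were close to 0 against T and NK cells (0.01 ± 0.20, adjusted p = 0.994), where P2rx7 itself had a fold change of -1.22 ± 0.33 that did not pass (adjusted p = 0.241). In the interaction with T and NK cells 1 of 8 members passed upward and 0 downward, beside 0.628% and 0.38% of all genes. The upward shares were 0.802% for NK (2 members), 1.06% for fibroblast (1), 0.398% for dendritic (1), 1.83% for CD8 T (1) and 0.74% for regulatory T cells (0 members, with 3 of 8 at an unadjusted p under 0.05 in edgeR and no DESeq2 fit).

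Across cell types, P2rx7, Entpd1, Nt5e, Ada and Adora2b were higher in monocyte/macrophage than in T and NK cells, and Adora2a was lower. In a comparison of monocyte/macrophage with T and NK cells, blocked by library, 5 members were higher and 1 lower, where 30.6% of all genes tested passed upward and 27.1% downward, so such calls were common among all genes. P2rx7 was higher by 2.54 ± 0.10 (adjusted p = 3.20e-09), Entpd1 by 1.08 ± 0.12, Adora2b by 1.03 ± 0.20, Ada by 0.86 ± 0.22 and Nt5e by 0.75 ± 0.13 on the log2 scale, the last 4 with adjusted p between 8.35e-06 and 0.00504. Adora2a had a log2 difference of -2.53 ± 0.39 (adjusted p = 0.00221). Upp1 (0.04 ± 1.00) and P2ry14 (-0.82 ± 0.41) did not pass (adjusted p = 0.977 and 0.161), and the Upp1 value turned to -0.60 without LNP-Sirpa replicate 1 and to -0.55 without LNP-Sirpa replicate 2. The Ada call was lost without CTRL replicate 2 (0.62, adjusted p = 0.0561), and P2ry14 passed without CTRL replicate 1 (-0.43, adjusted p = 0.0250).

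The order of mean levels over the 4 libraries was set per gene in the 6 gates with at least 20 cells in every library. P2ry14 was highest in NK cells, at 80.5 to 169 CPM, above CD8 T cells at 24.7 to 71.1 CPM without overlap, and monocyte/macrophage cells followed with 9.16 to 50.9 CPM. The overlapping gene Med12l had 94.1 and 97.5 CPM in NK cells of LNP-Sirpa libraries and 100.1 and 141 CPM in those of CTRL libraries. In CD8 T cells it had 51.5 and 45.3 against 102 and 66.6 CPM. The ranges of Med12l and P2ry14 overlapped in both gates, so the order of P2ry14 over gates is uncertain to that extent. P2rx7 ran from 45.4 to 192 CPM in monocyte/macrophage cells, which overlapped the next gate, regulatory T cells, at 4.43 to 53.8 CPM. The remaining gates lay between 5.12 and 41.8 CPM and overlapped each other.

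Adora2a was highest in dendritic cells, at 30.7 to 56.8 CPM, and overlapped regulatory T cells at 25.6 to 47.5 CPM, CD8 T cells at 15.6 to 31.8 CPM and NK cells at 6.04 to 20.9 CPM, each with its neighbour. Monocyte/macrophage cells at 1.95 to 5.62 CPM and fibroblasts at 0 to 0.545 CPM lay below without overlap. Within the dendritic gate, cells with markers of mature dendritic cells held 46 of 46 and 6 of 6 Adora2a UMIs in LNP-Sirpa libraries, and 42 of 42 and 32 of 33 in CTRL libraries. Such cells were 137 of 170 and 35 of 35 dendritic-gated cells in LNP-Sirpa libraries and 89 of 100 and 93 of 118 in CTRL libraries. They held 80.1% and 100% against 92.1% and 74.3% of the gate's UMIs, so LNP-Sirpa replicate 2 could give no other count. Entpd1 stood instead at 232 CPM in type 1 dendritic cells of LNP-Sirpa replicate 1, and at 156 and 263 CPM in those of CTRL libraries, from 42 against 3 and 46 UMIs (LNP-Sirpa replicate 2 had none of these cells).

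Nt5e was highest in regulatory T cells, at 92.4 and 136 CPM in LNP-Sirpa libraries and 47.7 and 79.2 CPM in CTRL libraries, and overlapped monocyte/macrophage cells. It was lowest in fibroblasts and dendritic cells, at 1.09 to 20.5 CPM. Entpd1 ran from 99.6 to 155 CPM in monocyte/macrophage cells, from 47.7 to 143 CPM in regulatory T cells and from 66.4 to 87.8 CPM in CD8 T cells, and was lowest in NK cells and fibroblasts at 7.95 to 38.5 CPM. In regulatory T cells both ectonucleotidase genes were seen together in 2.20% and 3.03% of thinned cells in LNP-Sirpa libraries and in 0 of 46 cells and 3.39% in CTRL libraries. A count of 0 in 46 cells allows a share of up to 6.52% of cells with a UMI of both at this depth, which is no limit on cells expressing both. Unthinned, the shares were 10.9% and 12.4% against 2.00% and 8.96%.

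Ada and Adora2b had their highest mean in fibroblasts. Ada ran from 16.9 to 25.8 CPM there, above monocyte/macrophage cells at 4.85 to 14.1 CPM without overlap. Adora2b lay between 0 and 19.1 CPM in all 6 gates and each gate overlapped its neighbour in order. For Upp1 all neighbours in the order overlapped, from monocyte/macrophage cells (8.60 to 152 CPM) to fibroblasts (10.9 to 39.8 CPM).

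**Figure D5:**
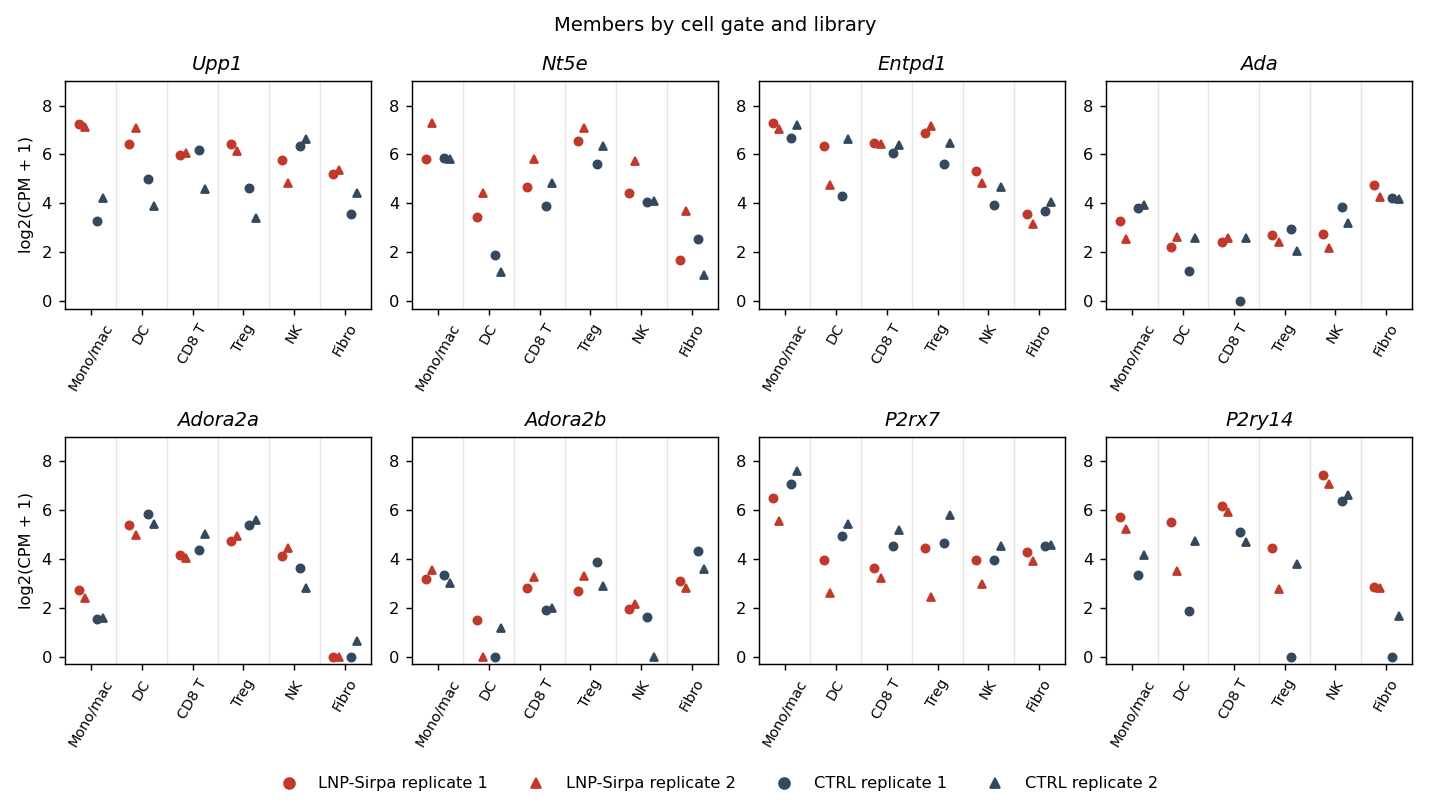
Level of each gene as log2(CPM + 1) in 6 gates, by library, with LNP-Sirpa libraries left of CTRL libraries in each gate. P2ry14 is highest in NK cells (80.5 to 169 CPM), Adora2a in dendritic cells (30.7 to 56.8 CPM) and P2rx7 in monocyte/macrophage cells (45.4 to 192 CPM).

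Gates with fewer than 20 cells in some library were described without a test. Neutrophil-gated cells (106 and 91 in LNP-Sirpa libraries, 9 and 10 in CTRL libraries) had Upp1 at 956 and 1071 CPM, against 323 and 209 CPM from 8 and 5 UMIs in CTRL libraries. Within each library these were the highest Upp1 levels of any gate. Entpd1 there had 482 and 523 CPM, against 484 and 1003 CPM from 12 and 24 UMIs. P2rx7 had 65.3 and 64.3 CPM in LNP-Sirpa neutrophils and no UMI in CTRL libraries, where a count of 0 allows up to 121 and 125 CPM, so a difference was not detectable at this depth. Mast-gated cells had P2rx7 at 46.0 and 59.9 CPM against 74.7 and 75.8 CPM, from 51 and 3 against 22 and 13 UMIs. Foxp3-negative CD4 T cells had Nt5e at 98.5 and 110.3 CPM against 134 and 36.8 CPM, from 49 and 56 against 8 and 6 UMIs.

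Other genes of the pathway were counted from a list of 67 genes in 7 function groups, of which 66 were found in the matrices. This list too was chosen with earlier results of these data known. In monocyte/macrophage cells 53 were tested, of which 4 were higher and 2 lower (edgeR's quasi-likelihood test), beside 1.53% and 0.582% of all genes, and the median log2 fold change was 0.01. Among 10 ectonucleotidases tested, 1 rose: Bst1, which forms cyclic ADP-ribose from NAD, had 90.1 and 83.0 CPM in LNP-Sirpa libraries and 29.0 and 34.0 CPM in CTRL libraries (1.6 ± 0.16, adjusted p = 0.0191). Among 7 carriers and release channels, Slc28a2, a concentrative nucleoside transporter, rose (28.5 and 24.3 against 11.8 and 11.9 CPM, 1.30 ± 0.14, adjusted p = 0.0218), and Slc29a1, an equilibrative one, fell (30.2 and 27.1 against 58.6 and 56.7 CPM, -0.86 ± 0.13, adjusted p = 0.0346).

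Of 6 tested genes listed as P2Y receptors, P2ry10 rose (13.9 and 9.03 against 5.02 and 5.55 CPM, 1.24 ± 0.21, adjusted p = 0.0451). P2ry10 is in the list by its symbol alone, which does not make it a nucleotide receptor. P2ry12, an ADP receptor known from microglia and platelets, fell (17.6 and 15.4 against 35.8 and 35.1 CPM, -0.96 ± 0.13, adjusted p = 0.0318). Of 14 genes of pyrimidine nucleosides, Samhd1, which breaks down deoxynucleotides inside the cell, rose (504 and 312 against 143 and 163 CPM, 1.54 ± 0.23, adjusted p = 0.0336). Of 13 genes of adenosine and purine salvage, 2 P2X receptors and 1 further adenosine receptor, 0 passed in edgeR, with 5, 0 and 1 at an unadjusted p under 0.05 and as many called by DESeq2. In the dendritic gate 1 of 21 listed genes tested passed, beside 1.04% of all genes upward and 0.266% downward: Pnp, a purine nucleoside phosphorylase, rose (266 and 271 against 107 and 103 CPM, 1.23 ± 0.26, adjusted p = 0.0218). Its copy Pnp2 is nearly identical, so reads could be split between the 2 genes. In fibroblasts 3 of 35 rose, beside 1.31% of all genes: Xdh, which makes uric acid (1.54, adjusted p = 0.00714), Samhd1 (1.34, adjusted p = 0.0144) and Nt5c3, a pyrimidine nucleotidase (1.71, adjusted p = 0.0261). In CD8 T, regulatory T and NK cells 0 of 37, 24 and 19 listed genes passed in edgeR, with 7, 4 and 3 at an unadjusted p under 0.05. DESeq2 gave an adjusted p for 31, 11 and 1 of them and called 0.

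Genes with the most similar pattern were ranked by Pearson's r of log2(CPM + 1) over 32 sums of gate and library, as a description, since sums of 1 library share its depth and treatment. Only sums of at least 20 cells entered, so neutrophils, where Upp1 was highest, entered from LNP-Sirpa libraries alone. Foxp3-negative CD4 T cells entered without CTRL replicate 1 and mast cells without LNP-Sirpa replicate 2. Cell type and group are therefore not separable in these values. The pattern of Upp1 was nearest to those of Plac8, Slpi and Slfn4 (r = 0.80, 0.76 and 0.75), and that of Nt5e to Glrx, Itgb2 and Vsir (0.91, 0.88 and 0.87). Plac8 was itself used as a marker of the monocyte/macrophage gate and of the monocyte state. Entpd1 was nearest to Mapkapk2, Xylt1 and Mdm2 (0.89, 0.87 and 0.86), Adora2a to Fnbp1, H2-Q6 and Stat4 (0.92, 0.90 and 0.90), P2rx7 to Itga9, Cd33 and Tom1 (0.84, 0.81 and 0.80) and P2ry14 to Tm6sf1, Pilrb1 and Cd244a (0.74, 0.72 and 0.72). Ada and Adora2b averaged under 10 CPM and were not ranked.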

How the data were processed

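RNA of CD45+ cells from MC38 tumours was measured in 4 droplet libraries, and 4 oligo libraries of the series were not analysed here. The authors deposited UMI counts for each gene in each cell, made with PISA 1.0, per the file headers, with STAR 2.5.1b and build GRCm39, per the submitters' processing notes. Whether counting used strand is not given in the sources used here.

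Cells with under 500 UMIs, under 300 genes or over 15% mitochondrial UMIs were dropped (the fewest UMIs of a deposited cell were 1000.0). Scrublet (scanpy 1.11.5) marked 0 cells by its automatic threshold in 3 libraries and 1 in the other, so the 5% with the highest doublet scores were left out of each. The libraries kept 9816 and 8555 LNP-Sirpa and 7129 and 10333 CTRL cells, with a median of 5729.5 and 5806 against 6743 and 6323 UMIs. Cells were gated by marker UMIs per 10000 UMIs, and counts were summed per gate and library. Gates with at least 20 cells in every library were tested with edgeR 4.0.16 (TMM, filterByExpr, robust quasi-likelihood, R 4.3.3), with 2 libraries per group, adjusted over all genes of the gate, at a threshold of 0.05. SE is the log2 fold change over the square root of F. The scripts were tested on simulated data. The comparison of gates and the interactions kept the library as a block. Alternatives were DESeq2 1.42.0, its size factors, no count filter, a replicate block, each library left out, doublets kept, stricter cell filters (2000 UMIs, 1000 genes) and gates, and cells thinned to 2000 UMIs. The interactions other than that with T and NK cells, the dendritic sub-gates and the CTRL mix of states were added after seeing the data. All 8 genes are named in every gate by rule, other pathway genes where they passed, and the 3 most similar genes among those averaging at least 10 CPM (predicted, mitochondrial, ribosomal and antigen receptor genes left out). The members and all lists were chosen with earlier results of these data known.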

Additional observations from a re-analysis of the deposited data

Results flagged for a closer look

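In 6 cases the treatment effect differed between cell gates by the interaction test in edgeR. Only the comparison with T and NK cells together was planned, and those with single gates were added after seeing the data. Each fit has 2 residual degrees of freedom and borrows its spread across genes, so small p-values rest on that shared estimate. For Upp1, the log2 effect in monocyte/macrophage cells exceeded that in NK cells by 4.70 ± 0.33 (adjusted p = 1.59e-41), that in fibroblasts by 2.40 ± 0.34 (adjusted p = 3.48e-09) and that in dendritic cells by 1.56 ± 0.41 (adjusted p = 0.0335). Upp1 was higher in both LNP-Sirpa libraries than in both CTRL libraries in monocyte/macrophage, fibroblast and dendritic cells, and lower in both in NK cells, where NK markers summed to between 9194 and 14882 CPM in LNP-Sirpa libraries, against 5129 to 5632 CPM in CTRL libraries. For Adora2a the differences were 1.69 ± 0.31 to T and NK cells (adjusted p = 0.00879) and 2.17 ± 0.45 to CD8 T cells (adjusted p = 0.000188). The mix of cells in the T and NK sums differed between libraries, and its part was not tested. For P2ry14 the difference to NK cells was 1.26 ± 0.30 (adjusted p = 0.00567), with both LNP-Sirpa libraries above both CTRL libraries in either gate. Of these 6, the Upp1 difference to NK cells alone passed without each of the 4 libraries in turn.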

How the results depend on the processing

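Counts of members, and of states in which Upp1 or P2ry14 passed, were compared with those under alternative settings. Of these, 143 were unchanged or within 1.5 times the reported count and 43 were not. The 143 include counts of 0 that stayed 0, where a limit of 1.5 times has no meaning, so they overstate how stable the counts were. Of the fold changes, 374 kept direction and side of the threshold, 58 newly passed, 49 no longer passed and 4 turned direction. Those 4 had not passed: Upp1 in CD8 T cells (-0.16 without CTRL replicate 2) and Upp1 in monocyte/macrophage against T and NK cells (-0.60 to 0.82 over the fits without 1 library, negative without LNP-Sirpa replicate 1 or, at -0.55, replicate 2, and -0.0898 in DESeq2).

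Without a filter on low counts, 4 members were higher and 2 lower in monocyte/macrophage cells, 1 higher and 1 lower in CD8 T cells, 1 higher in regulatory T cells and 1 higher in fibroblasts. Calls over all genes rose as well, to 5.52% higher and 3.17% lower in monocyte/macrophage cells, 1.07% and 0.167% in CD8 T cells, 0.715% higher in regulatory T cells and 1.76% higher in fibroblasts. DESeq2 called 2 members lower in monocyte/macrophage cells and 2 lower there than in T and NK cells, beside 2.65% and 21.8% of all genes. With stricter gates, 1 was higher in monocyte/macrophage cells, 1 in CD8 T cells and 2 in the interaction with T and NK cells. The upward shares of all genes there were 1.15%, 0.186% and 0.792%. P2ry14 passed in 3 states with stricter gates, where upward shares ran from 0.329% (lipid) to 1.65% (inflammatory). On thinned cells, 1 was lower in monocyte/macrophage cells, beside 1.47% of all genes. There 0 were higher in dendritic cells and in the interaction, beside 1.14% and 0.683%. Upp1 passed in 4 states on thinned cells, where upward shares ran from 0.253% (interferon) to 4.29% (inflammatory). Keeping doublets or a stricter cell filter gave 1 higher in regulatory T cells in each case, beside 0.354% and 0.271% of all genes.

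Leaving out each library in turn gave 1 to 2 members higher and 0 to 1 lower in monocyte/macrophage cells, 1 to 2 higher in dendritic cells, 0 to 2 higher and 0 to 1 lower in CD8 T cells, 0 to 1 higher in regulatory T cells, 0 to 1 higher and 0 to 1 lower in NK cells, 1 to 2 lower in monocyte/macrophage against T and NK cells, and 0 to 2 higher in the interaction. Over the same fits Upp1 passed in 4 to 8 states and P2ry14 in 1 to 6. The cause of these changes was not tested, and a group left with 1 library is assumed to vary like the other group.

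Replicate numbers were shared by both groups. Same-numbered libraries did not deviate together in monocyte/macrophage cells (r = 0.00499 over 7681 genes). This correlation cannot tell whether they were handled together, which the labels do not say, so a pairing remains possible. With a replicate block, 3 members were higher and 1 lower in monocyte/macrophage cells, 1 higher and 1 lower in CD8 T cells, 1 higher in regulatory T cells and 1 lower in NK cells, beside 4.82% and 2.44%, 1.17% and 0.288%, 1.44% and 0.798% of all genes in those gates and directions. Low depth limits gates of few cells most: Upp1 in regulatory T cells of CTRL libraries rests on 7 and 3 UMIs.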
